A study of Mus musculus with 8 samples.

Results

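The miR-122 locus and the core genes of the microRNA pathway were followed in mouse liver: 10 entries of the 43629 with values in the authors' table of all genes. They were taken by identifier for the miR-122 locus, an entry that the authors added to the annotation, and by gene symbol for Drosha, Dgcr8, Xpo5, Dicer1, Ago1, Ago2, Ago3, Tnrc6a and Tnrc6b. Ago4 and Tnrc6c were added so that the Argonaute and Tnrc6 families could be described whole. The RNA came from livers of male C57BL/6 mice aged 7 to 8 weeks, 1 mouse per library. In the control group, 4 mice received 5 µg of antagomiR-control by tail vein, and in the other group 4 mice received 5 µg of antagomiR-122, an antisense inhibitor of the mature microRNA miR-122. Both groups were also given 1 mg/kg of CL316243, which activates β3-adrenergic receptors, under the skin 48 h later and were killed after a further 2 h. No group without CL316243 was analysed here, so each difference below is one between antagomiRs in mice that had all received the agonist.

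MicroRNAs are cut from long primary transcripts in the nucleus by the Microprocessor, which consists of the RNase III enzyme Drosha and its RNA-binding partner Dgcr8. The resulting hairpins are carried to the cytoplasm by exportin 5 (Xpo5), trimmed to a duplex by Dicer1, and loaded into an Argonaute protein, which recruits Tnrc6 (GW182) proteins and through them the deadenylases that shorten the target mRNA. miR-122 is the dominant microRNA of hepatocytes, and its primary transcript comes from a single liver-specific locus. An antagomiR binds the mature strand, so neither the primary transcript nor the machinery mRNAs measure how far miR-122 was inhibited.

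Some of these genes hold microRNAs in their own transcripts, and the sequences are shown because the Microprocessor cuts such hairpins out of the host RNA itself. Dgcr8, on the minus strand of chromosome 16 (GRCm38), carries hairpins in its exons, and Drosha with Dgcr8 is known to cleave the Dgcr8 mRNA there, a feedback on the level of Dgcr8. The mature strands below are from RefSeq (GRCm38.p6), written 5′ to 3′ with the seed, bases 2 to 8, in capitals. The first pair lies in a coding exon of Dgcr8 (chr16:18284248-18284310) and the second in an untranslated exon (chr16:18284562-18284623).
miR-1306-5p: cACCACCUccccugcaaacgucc
miR-1306-3p: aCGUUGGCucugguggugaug
miR-3618-5p: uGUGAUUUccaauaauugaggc
miR-3618-3p: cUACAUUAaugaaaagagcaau
These 4 strands have 4 different seeds. Xpo5 also holds miR-693, in an intron, and Tnrc6b holds miR-5113, in an exon of its 3′ untranslated region.

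A second set is shown because its hosts are described at the end and because miR-103 and miR-107 are known to act on Dicer1 mRNA, and let-7, in human cells, on its coding sequence. let-7f and miR-98 lie in an intron of Huwe1 (plus strand, chrX:151912353-151912374 and chrX:151913229-151913250) and share a seed. miR-103 lies in introns of Pank2 (plus strand, chr2:131288103-131288125) and Pank3 (plus strand, chr11:35782447-35782469), and miR-107, with the same seed, in an intron of Pank1 (minus strand, chr19:34820700-34820722).
let-7f-5p: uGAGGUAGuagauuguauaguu
miR-98-5p: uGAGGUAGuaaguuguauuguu
miR-103-3p: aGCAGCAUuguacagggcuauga
miR-107-3p: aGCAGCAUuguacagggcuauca
The complement of each seed was searched on the transcribed strand of the longest annotated 3′ untranslated region of Dicer1, which is 3851 bases long. ATGCTGC, the match to miR-103 and miR-107, occurred 1 time, at chr12:104690165-104690188 on the minus strand, with the match in capitals.
Dicer1 site: atgcttcatgtaATGCTGCactta
CTACCTC, the match to let-7f and miR-98, occurred 0 times. Of 2043 annotated 3′ untranslated regions of like length (0.8 to 1.25 times that of Dicer1), 29.0% held ATGCTGC and 22.3% held CTACCTC, so a match of this kind is common at that length. The 3′ untranslated regions of all 11 machinery genes run from 169 to 12742 bases. ATGCTGC was found in 8 of them (2 times each in Ago2 and Tnrc6b, and not in Drosha, Xpo5 or Tnrc6a). CTACCTC was found in 2 (3 times in Ago2 and 1 time in Ago3). The shares above hold for the length of the Dicer1 region only, so whether these counts are more than usual was not assessed.

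Values are FPKM, fragments scaled both to the length of the transcript and to the size of the library, and so a level per length. Relative depth was estimated from the most common value of FPKM times length among low genes, assumed to be that of 1 fragment. It was 0.940 to 1.12 in the control libraries and 0.895, 0.993, 1.11 and 2.33 in antagomiR-122 replicates 1 to 4. antagomiR-122 replicate 4 also listed 15 genes at 0 that stood above 5 FPKM in every other library, and 9.17% of its summed FPKM was mitochondrially encoded against 20.4% to 24.1% elsewhere. Hepatocyte markers summed to 21130 to 24330 FPKM in controls and 20881 to 23953 with antagomiR-122. Of 8 hepatocyte markers, Alb was listed at 0 in all libraries and the other 7 were present in every library. Kupffer cell markers summed to 182 to 251 and 187 to 229 FPKM, endothelial markers to 98.0 to 104 and 93.5 to 111, and cholangiocyte markers to 30.4 to 38.7 and 26.0 to 30.5. Stellate cell markers summed to 128 to 188 and 91.9 to 188 FPKM, neutrophil markers to 8.77 to 25.8 and 5.78 to 12.6, lymphocyte markers to 2.41 to 5.11 and 2.05 to 4.37, erythroid markers to 134 to 202 and 152 to 273, and adipocyte markers to 0.178 to 0.252 and 0.238 to 3.74. Groups did not overlap for 2 of 5 cholangiocyte markers (Epcam and Spp1) and 1 of 6 stellate markers (Lrat), all lower with antagomiR-122. Of all genes tested, 4.52% did not overlap, but Epcam, at a mean of 0.577 FPKM, was too low to be among them. Krt19 and Krt7 of the cholangiocyte markers had higher means with antagomiR-122. Spp1, at 31.5 and 25.8 FPKM, made up most of the cholangiocyte sums. The part of these markers in the results was not tested. In whole liver, fewer cells of a type and less RNA per cell cannot be told apart.

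With antagomiR-122, 2 of the 9 members tested had a higher level (Drosha and Dgcr8) and 7 a lower one, and 0 passed the test. limma was run on log2(FPKM + 1) for genes that averaged 1 FPKM or more, and 0% of all 11131 genes passed an adjusted p of 0.05. The unadjusted p was under 0.05 for 1 member (Tnrc6b) and for 7.44% of all genes tested (828), or 3.67% in the lower direction. Of all genes tested, 47% had a log2 fold change below 0. Tnrc6b was also the 1 member whose groups did not overlap, against 4.52% of all genes tested in either direction and 2.14% in the lower direction. The median log2 fold change was -0.08 over the 9 members and 0.01 over all genes tested. With 1 library left out the members' median ranged from -0.15 to -0.03, and with a trend with transcript length removed, described below, it was -0.0008. In the authors' deposited table, Tnrc6b was the 1 of 10 members called significant, where their call was made for 1.42% of the 13259 genes tested by Cuffdiff, and for 0.86% in the lower direction.

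**Figure D1:**
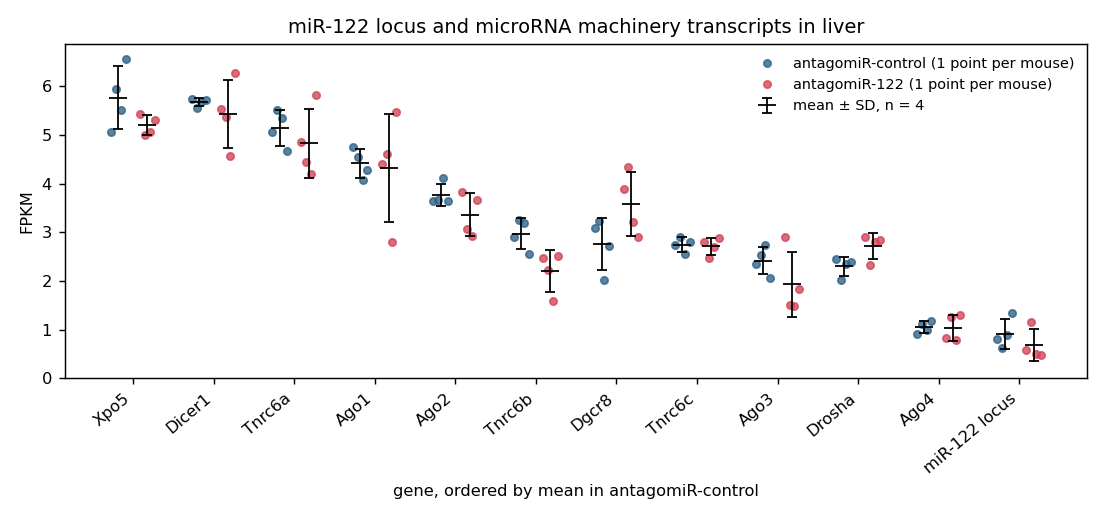
FPKM (vertical axis) of the miR-122 locus and 11 microRNA machinery genes in each library, with antagomiR-control and antagomiR-122 in separate colours, 1 point per mouse, and bars for the mean ± SD (n = 4). Xpo5, Dicer1, Tnrc6a and Ago1 lie highest and the locus lowest, and Tnrc6b is the gene whose groups do not overlap.

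In control livers the mean level descended in the order Xpo5, Dicer1, Tnrc6a, Ago1, Ago2, Tnrc6b, Dgcr8, Tnrc6c, Ago3, Drosha, Ago4 and the miR-122 locus. Xpo5 stood at 5.76 ± 0.643 FPKM and Ago4 at 1.05 ± 0.125 (SD, n = 4 each), so the mRNAs of the pathway were all low and close together on this scale. Neighbours in that order had ranges that did not overlap in 3 places: Dicer1 against Tnrc6a, Ago2 against Tnrc6b, and Drosha against Ago4. All other neighbours overlapped between mice. With antagomiR-122 the range of Tnrc6b lay below those of Ago2 and Dgcr8, both of which stand next to it in the control order.

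The miR-122 locus spans chr18:65244001-65253000 on the plus strand of GRCm38, 9 kb in all, and was the least abundant of the members. GENCODE M21 annotates a long noncoding RNA, AC157910.3, on the same strand at 65244287 to 65252621, whose exons share 7805 bases with the locus, and the Mir122 hairpin at 65248861 to 65248926. The separate Mir122 entry was listed at 0 in all libraries, as were all others of the 2012 microRNA entries in the table, so the mRNA libraries hold no value for any mature or hairpin microRNA. The locus stood at 0.806, 0.626, 0.898 and 1.34 FPKM in controls 1 to 4 and at 0.591, 1.17, 0.502 and 0.472 in antagomiR-122 replicates 1 to 4. In 3 of the 4 antagomiR-122 livers it was below every control, while replicate 2 was above all controls but the fourth, so the groups overlapped. The mean differed by -25.5%, and the coefficient of variation among mice was 33.2% in controls and 47.9% with antagomiR-122. The difference of -0.234 FPKM did not pass (exact permutation test, two-sided p = 0.314). Without antagomiR-122 replicate 2 the difference was -0.396 FPKM (exact permutation p = 0.0571), and without control replicate 4 it was -0.0930 FPKM (exact permutation p = 0.686). By the estimate used for relative depth, 1 fragment over 9 kb was worth about 0.00205 to 0.00534 FPKM, far less than the differences between mice. The locus was under the minimum level for limma, and when the minimum was dropped its log2 fold change was -0.19 ± 0.16 (SE; limma, adjusted p = 0.843). At this level the pseudocount of 1 compresses the fold: on log2(FPKM + 0.1) the difference was -0.41 (exact permutation p = 0.286), and the authors' deposited table gives a log2 fold change of -0.43 with q = 0.343.

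The genes beside the locus on chromosome 18 were compared by position. Nedd4l, a ubiquitin ligase, stood at 12.8 ± 1.09 FPKM in controls against 11.6 ± 0.876 FPKM in antagomiR-122 livers (SD, n = 4 each; limma, adjusted p = 0.795). Malt1, a signalling protease of immune cells, was at 1.21 ± 0.0734 and 1.29 ± 0.234 FPKM (limma, adjusted p = 0.942), and the kinase gene Alpk2 at 1.14 ± 0.261 and 0.887 ± 0.415 FPKM (limma, adjusted p = 0.825). In none of the 3 was antagomiR-122 replicate 2 the highest library, as it was in its group at the locus. By the root-mean-square difference in log2(FPKM over a gene's own mean) across 8 libraries, Usp35 was most like the locus of 12321 genes, at 0.15. Among genes with a symbol, those with only clone or predicted-gene names left out, it was followed by P4ha2 at 0.20, Abi3 at 0.22, Cadm4 at 0.23 and Mettl20 at 0.23. The median over all 12321 was 0.56. These 5 genes were picked for this likeness, and in each of them antagomiR-122 replicate 2 was the highest of its group.

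**Figure D2:**
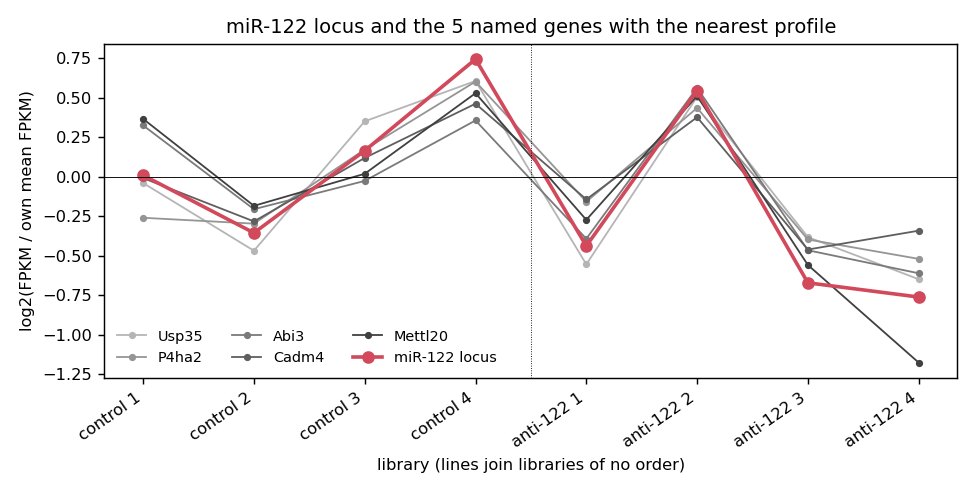
Level in each library relative to the gene's own mean over all libraries (log2 scale, vertical axis) for the miR-122 locus (thick line) and the 5 genes chosen for their likeness to it, by library (horizontal axis, where lines join libraries that have no order). All 6 lines are highest in control replicate 4 or antagomiR-122 replicate 2.

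Both subunits of the Microprocessor had higher means with antagomiR-122. Drosha, the catalytic subunit, stood at 2.45, 2.02, 2.35 and 2.39 FPKM in controls and at 2.91, 2.33, 2.79 and 2.85 with antagomiR-122. Replicates 1, 3 and 4 of antagomiR-122 exceeded every control and replicate 2 lay among the controls. The log2 fold change was 0.17 (95% interval -0.04 to 0.38) and did not pass (limma, adjusted p = 0.738). Dgcr8, the subunit that grips the hairpin, stood at 3.08, 3.22, 2.02 and 2.72 FPKM in controls and at 3.89, 4.34, 3.20 and 2.90 with antagomiR-122. Replicates 1 and 2 of antagomiR-122 were above every control, and replicates 3 and 4 lay within the control range. The log2 fold change of Dgcr8 was 0.29 (95% interval -0.02 to 0.59; limma, adjusted p = 0.693), and without control replicate 3 it was 0.18. Dgcr8 exons share 825 bases with Trmt2a on the opposite strand and 327 with Gm49776 on the same strand, and the strand setting of the counting is not given in the sources used here, so fragments there cannot be assigned with certainty.

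Dgcr8 protein stabilises Drosha, while the complex of both cuts Dgcr8 mRNA, so their ratio was examined as well. The ratio of Drosha to Dgcr8 FPKM was 0.795, 0.628, 1.16 and 0.876 in controls and 0.748, 0.537, 0.872 and 0.982 with antagomiR-122. The groups lay across each other, and the log2 ratio differed by -0.14 between them (exact permutation test, two-sided p = 0.629).

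Xpo5, which carries the hairpins out of the nucleus, was the highest of the members in controls, at 5.05, 5.94, 5.50 and 6.55 FPKM. With antagomiR-122 it stood at 5.43, 5.01, 5.05 and 5.30 FPKM. The antagomiR-122 livers were close together near the bottom of the control range, with an SD of 0.202 against 0.643. The log2 fold change was -0.12 (95% interval -0.32 to 0.08; limma, adjusted p = 0.799), and without control replicate 4 it was -0.07.

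Dicer1, which cuts the hairpin loop, was the steadiest member among control mice, at 5.73, 5.55, 5.68 and 5.72 FPKM. With antagomiR-122 it was 5.52, 5.37, 4.57 and 6.28 FPKM, so replicate 3 lay below and replicate 4 above all controls. The means were 5.67 ± 0.0837 and 5.43 ± 0.701 FPKM (SD, n = 4 each), and the log2 fold change was -0.06 (95% interval -0.27 to 0.15; limma, adjusted p = 0.920). Without antagomiR-122 replicate 3 the sign turned, to 0.0093.

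Of the Argonaute genes, Ago1 was the most abundant per length, and Ago2, which encodes the only mammalian Argonaute with efficient slicer activity on fully paired targets, came next. Ago1 stood at 4.76, 4.54, 4.08 and 4.28 FPKM in controls and at 4.41, 4.60, 2.81 and 5.46 with antagomiR-122. Replicates 3 and 4 of antagomiR-122 lay outside the control range on opposite sides. Its log2 fold change was -0.05 (95% interval -0.38 to 0.28; limma, adjusted p = 0.957), and without antagomiR-122 replicate 3 it was 0.10. Ago2 stood at 3.64, 3.66, 4.12 and 3.64 FPKM in controls and at 3.82, 3.06, 2.92 and 3.66 with antagomiR-122. Replicates 2 and 3 of antagomiR-122 were below every control and the other two lay inside the control range. Its log2 fold change was -0.13 (95% interval -0.35 to 0.09; limma, adjusted p = 0.799), and without antagomiR-122 replicate 3 it was -0.08. Its exons share 219 bases with Chrac1 on the opposite strand.

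Ago3 and Ago4, the less abundant Argonautes, lie beside Ago1 on chromosome 4. Ago3 stood at 2.34, 2.53, 2.73 and 2.07 FPKM in controls and at 2.91, 1.51, 1.48 and 1.84 with antagomiR-122. In antagomiR-122, 3 livers were below every control and replicate 1 was above them all. The log2 fold change was -0.24 (95% interval -0.58 to 0.09; limma, adjusted p = 0.764), and without antagomiR-122 replicate 1 it was -0.39. Ago4 stood at 0.909, 1.11, 0.986 and 1.19 FPKM in controls, and with antagomiR-122 at 0.825, 1.25, 0.793 and 1.29. All antagomiR-122 livers lay outside the control range, replicates 1 and 3 below and replicates 2 and 4 above it, and the log2 fold change was -0.01 (95% interval -0.28 to 0.25; limma, adjusted p = 0.985).

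The mix of Argonaute mRNAs was described by each gene's share of their summed FPKM. Control livers summed to 11.6 ± 0.334 FPKM and antagomiR-122 livers to 10.7 ± 1.95 FPKM (SD, n = 4 each), with the lowest library, antagomiR-122 replicate 3, at 8.00. Ago1 made up 37.9% ± 2.72 in controls and 40.2% ± 4.88 with antagomiR-122, Ago3 20.7% ± 1.87 and 18.1% ± 4.53, and Ago4 9.02% ± 1.27 and 9.85% ± 2.16 (SD, n = 4). The share of Ago2 was 31.3%, 30.9%, 34.6% and 32.6% in controls and 31.9%, 29.4%, 36.4% and 29.9% with antagomiR-122. Ago2 thus held close to the same share in both groups, differing by -0.41 percentage points (exact permutation test, two-sided p = 0.8). The spread of every Argonaute share was larger with antagomiR-122 than in controls.

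Among the Tnrc6 genes, the scaffolds that link Argonaute to the deadenylases, Tnrc6b was lower with antagomiR-122. Its level was 2.91, 3.24, 3.19 and 2.55 FPKM in controls and 2.48, 2.23, 1.59 and 2.51 with antagomiR-122. All antagomiR-122 livers were below all controls, but the gap was narrow: the highest antagomiR-122 liver (replicate 4) and the lowest control (replicate 4) were 2.51 and 2.55 FPKM. The mean differed by -25.9%, from 2.97 ± 0.320 to 2.20 ± 0.430 FPKM (SD, n = 4 each). The exact permutation test, not planned for this gene, gave the smallest two-sided p that 4 against 4 mice allow, 0.0286. Any gene whose groups do not overlap gets that p, so it only restates the lack of overlap, found in 4.52% of all genes tested. The log2 fold change was -0.32 (95% interval -0.59 to -0.05), and it did not pass after adjustment over all genes (limma, unadjusted p = 0.0245, adjusted p = 0.604). Without antagomiR-122 replicate 3 it was -0.22 (limma, adjusted p = 0.883). The authors' deposited table gave a log2 fold change of -0.43 with p = 0.00025 and q = 0.0215 for Tnrc6b.

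Tnrc6a and Tnrc6c did not share that pattern. Tnrc6a stood at 5.06, 5.50, 5.34 and 4.66 FPKM in controls and at 4.84, 4.45, 4.20 and 5.82 with antagomiR-122, so that replicate 4 was the highest and replicate 3 the lowest of all livers. Its log2 fold change was -0.08 (95% interval -0.31 to 0.15; limma, adjusted p = 0.885), with a range from -0.16 without antagomiR-122 replicate 4 to -0.03 without replicate 3. Tnrc6c stood at 2.74, 2.91, 2.55 and 2.79 FPKM in controls and at 2.79, 2.47, 2.71 and 2.88 with antagomiR-122. The groups lay on top of each other, with a log2 fold change of -0.01 (95% interval -0.20 to 0.17; limma, adjusted p = 0.976).

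Tnrc6b made up 27.1%, 27.8%, 28.8% and 25.5% of the summed Tnrc6 FPKM in controls and 24.5%, 24.4%, 18.7% and 22.4% with antagomiR-122. These shares did not overlap either, but they were looked at after the Tnrc6b levels were seen and are given without a test. Tnrc6b has the longest transcript of the family, 17332 bases against 8183 for Tnrc6a and 11590 for Tnrc6c. Its lowest share was in antagomiR-122 replicate 3, the library low in long transcripts described below. No share of Tnrc6 or Argonaute genes was recomputed with the length trend removed. The share of Tnrc6a was 47.3% ± 0.635 in controls against 49.5% ± 1.74 in the antagomiR-122 livers (SD, n = 4), a difference of 2.15 percentage points (exact permutation test, two-sided p = 0.0571), and that of Tnrc6c was 25.4% ± 2.01 and 28.0% ± 2.67. With 1 library left out the Tnrc6a share differed by 1.34 to 2.68 points (exact permutation p from 0.0286, the smallest that 4 against 3 mice allow and reached without antagomiR-122 replicate 1, to 0.114), while the level of Tnrc6a itself was not higher.

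**Figure D3:**
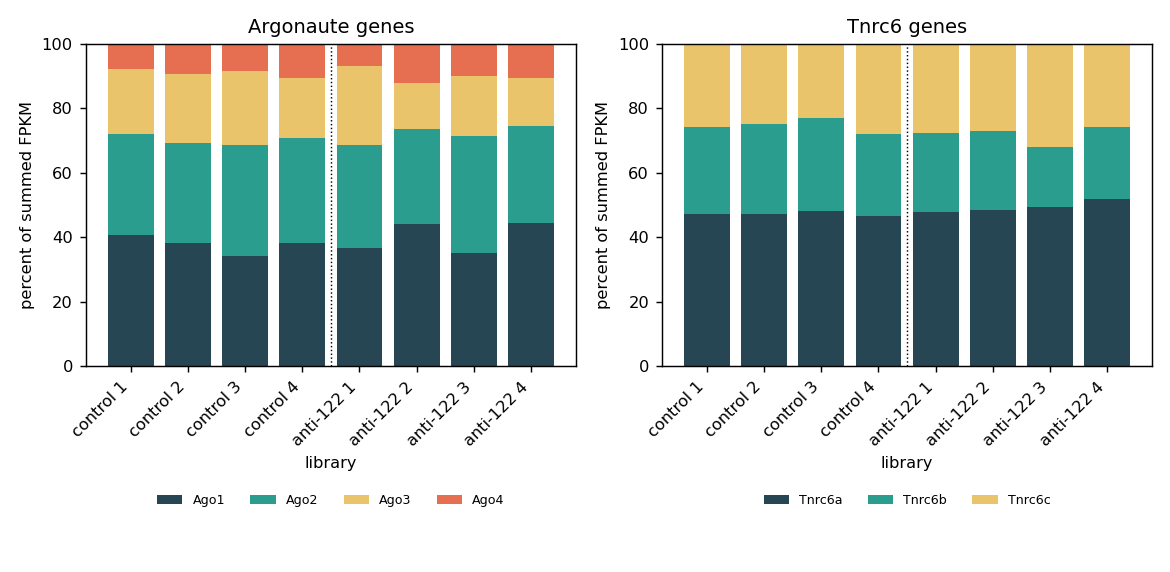
Percent of the summed FPKM (vertical axis) taken by each Argonaute gene (left) and each Tnrc6 gene (right) in each library, as stacked bars that start at 0. The Tnrc6b segment is 25.5% to 28.8% in controls and 18.7% to 24.5% with antagomiR-122, while the Ago2 segment overlaps between groups.

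**Figure D4:**
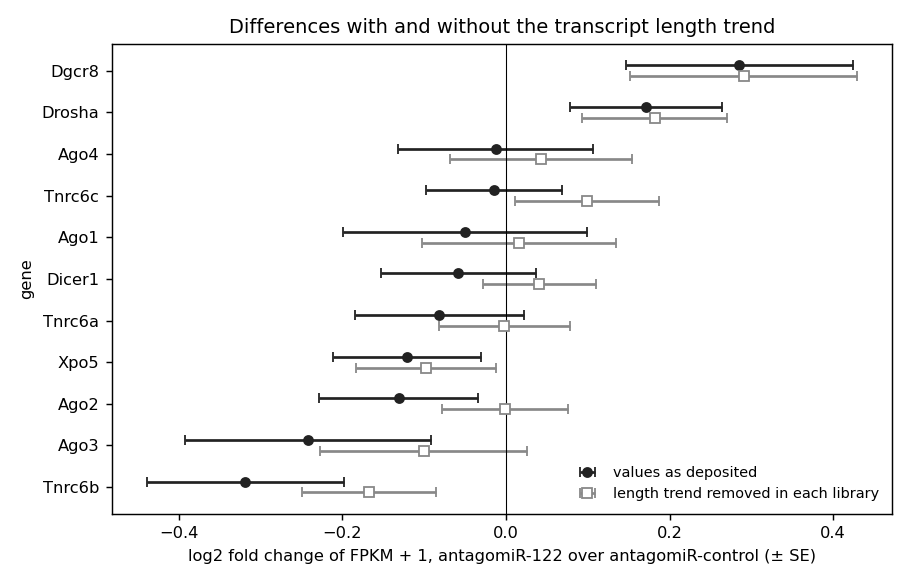
Log2 fold change, antagomiR-122 over antagomiR-control, on log2(FPKM + 1) (horizontal axis) for the tested members and for Ago4 and Tnrc6c, with bars of 1 SE, as deposited (filled) and after the trend with transcript length was removed in each library (open). Tnrc6b goes from -0.32 to -0.17, and Drosha and Dgcr8 are nearly the same in both.

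A single liver, antagomiR-122 replicate 3, held the lowest value of all libraries in 7 of the 11 machinery genes, and replicate 4 held the highest in 4. The same liver was low in long transcripts throughout the genome: in tested genes whose longest transcript was at least 8000 bases, its median deviation from the gene's mean was -0.21 on the log2 scale, against -0.06 to 0.07 in the other libraries, and in genes under 2000 bases it was 0.12. Most machinery mRNAs are long, from 4320 bases for Dgcr8 and 4570 for Drosha to 13800 for Ago2, 15595 for Ago3 and 17332 for Tnrc6b. Across all tested genes the median log2 fold change went from 0.05 under 2000 bases (2707 genes, 33.7% below 0) to -0.10 at 8000 bases or more (555 genes, 76% below 0). Groups did not overlap for 3.47% of the genes under 2000 bases and 7.39% of those of 8000 or more. When the trend of log2 FPKM with length was removed from each library, an alternative chosen after seeing the data, Tnrc6b was at -0.17 ± 0.08 (SE; limma, adjusted p = 0.700), Ago2 at -0.0008, Ago3 at -0.10, Tnrc6a at -0.0019 and Xpo5 at -0.10. Under the same alternative Dicer1, Ago1, Ago4 and Tnrc6c turned to 0.04, 0.02, 0.04 and 0.10, while Drosha (0.18) and Dgcr8 (0.29), the members with the shortest transcripts, kept nearly the same values. antagomiR-122 replicate 2 leaned the same way as replicate 3, with a median deviation of 0.07 under 2000 bases and -0.06 at 8000 or more. Controls 1 to 3 and antagomiR-122 replicates 1 and 4 leaned the other way, from -0.04 or -0.03 to between 0.03 and 0.07. Control replicate 4 went from 0.01 to 0.02. What made levels go with transcript length in these livers was not tested.

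**Figure D5:**
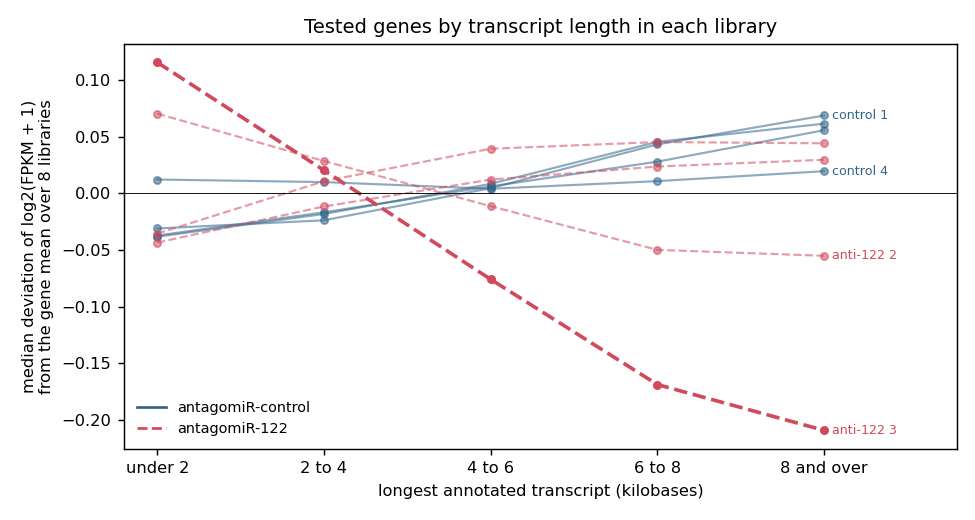
Median deviation of each library from the gene means over all tested genes (log2 of FPKM + 1, vertical axis) in classes of the longest annotated transcript (horizontal axis, kilobases), with 1 line per library, solid for antagomiR-control and dashed for antagomiR-122. antagomiR-122 replicate 3, the thick line, falls to -0.21 in the longest class.

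The partners of the core machinery showed no gene past the threshold in any list (limma). Of 14 nuclear partners of the Microprocessor, 8 were higher and 6 lower with antagomiR-122, with a median log2 fold change of 0.01. The smallest p values there belonged to the transcription factor Smad3 (3.82 ± 0.713 against 3.04 ± 0.815 FPKM, SD, n = 4 each), the helicase Ddx5 (-0.08 log2) and the RNA-binding protein Tardbp (-0.13 log2). Of 5 genes of the Ran cycle that drives export, 3 were higher and 2 lower (median 0.05), with Rangap1 at 0.17, Rcc1 at -0.19 and Ran at -0.10. With 1 library left out their smallest values were 0.08, -0.10 and -0.03.

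Of 14 genes that assist Dicer1 and Argonaute loading, 7 were higher and 7 lower (median -0.01). Gemin4, found in Argonaute complexes, had the largest difference of that list, with 1.22, 0.969, 1.52 and 0.358 FPKM in controls and 1.11, 1.43, 1.89 and 2.06 with antagomiR-122. Its groups overlapped, and its log2 fold change of 0.40 ± 0.20 (SE) did not pass (limma, adjusted p = 0.705). Without control replicate 4 it was 0.22, and with a pseudocount of 0.1 it was 0.73. The chaperone Hsp90ab1 and the cochaperone Fkbp4, which act in loading, were at -0.11 and -0.10. Of 22 tested deadenylation and decapping genes (23 in the list, Dcp1b being too low), 8 were higher and 14 lower, with a median of -0.02. Pan3, a subunit of the deadenylase that Tnrc6 proteins recruit, stood at 14.1, 14.8, 7.73 and 11.7 FPKM in controls and at 8.56, 7.71, 9.21 and 10.1 with antagomiR-122. Control replicate 3 lay among the antagomiR-122 livers, and the log2 fold change of -0.37 ± 0.18 (SE) did not pass (limma, adjusted p = 0.683). Pabpc1, the poly(A)-binding protein that Tnrc6 proteins contact, was the 1 of 22 genes whose groups did not overlap (4.52% of all genes tested), at 141 ± 3.79 and 153 ± 6.16 FPKM (SD, n = 4 each; 0.12 log2), and the deadenylase Cnot6l was at -0.25. Of 11 tested genes of microRNA tailing and turnover (13 in the list, Lin28a and Lin28b being too low), 5 were higher and 6 lower (median -0.01). The uridylyltransferase Zcchc11 was at 5.85 to 6.11 FPKM in 3 antagomiR-122 livers and at 10.8 in replicate 3, with controls at 5.19 to 6.66, and Zcchc6 and Qk were at -0.15 and -0.14.

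Of the transcription factors reported to act on the miR-122 gene, 6 of 7 tested genes were higher and 0 passed the threshold (median 0.33). The median ranged from 0.14 to 0.54 with 1 library left out. Hnf4a was counted as higher at 0.0093 log2, and its sign changed with 1 library left out. The lists were chosen with earlier results of these data known, so their medians are not ranked. Nr1d1, the clock repressor Rev-erbα, stood at 24.5, 20.0, 26.4 and 25.4 FPKM in controls and at 44.3, 58.2, 34.8 and 47.3 with antagomiR-122. Cebpa, a hepatocyte transcription factor, stood at 76.1, 54.4, 57.9 and 64.3 FPKM in controls and at 84.2, 92.4, 101 and 104 with antagomiR-122. In both genes all antagomiR-122 livers were above all controls. Groups did not overlap for these 2 of the 7 tested genes, against 4.52% of all genes tested. Their log2 fold changes were 0.89 ± 0.15 (SE, limma, adjusted p = 0.251) and 0.60 ± 0.11 (SE, limma, adjusted p = 0.288). The authors' deposited table calls both significant, a call made for 1.42% of the 13259 genes tested by Cuffdiff. Rora, the nuclear receptor that activates genes Nr1d1 represses, was the 1 tested gene of the list with a lower level, at 13.8 ± 0.750 and 11.0 ± 2.47 FPKM (SD, n = 4 each; limma, adjusted p = 0.671). Hnf4a, a master regulator of hepatocyte genes, was at 165 ± 17.0 and 166 ± 19.9 FPKM (SD, n = 4 each). Onecut1 was too low for limma, at 0.859 ± 0.685 and 0.430 ± 0.293 FPKM (SD, n = 4 each; exact permutation p = 0.229), although the authors' deposited table calls it, with q = 0.0136. Onecut1, lower on average, is not among the 7 tested genes, and the list includes a repressor, Nr1d1. The locus and the genes of this list did not pass their tests, and a link between their levels was not tested.

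Of 20 genes listed as hosts of microRNAs (in Dnm2 on the opposite strand), 12 were higher and 8 lower with antagomiR-122 (median 0.02), and 3 had groups that did not overlap, against 4.52% of all genes tested. Huwe1, a large ubiquitin ligase gene that hosts let-7f and miR-98, stood at 44.6, 33.4, 41.5 and 48.7 FPKM in controls and at 30.5, 25.9, 23.1 and 26.4 with antagomiR-122. All antagomiR-122 livers were below all controls. The log2 fold change was -0.64 ± 0.12 (SE, limma, unadjusted p = 0.000414, adjusted p = 0.288), or -0.51 with the length trend removed. The authors' deposited table does not call Huwe1 significant (Cuffdiff, log2 fold change -0.67, p = 0.053, q = 0.750). The other two were named after their values were seen: Pank1 was at 151 ± 17.5 and 181 ± 31.3 FPKM and Egfl7, host of miR-126a, at 25.6 ± 1.54 and 29.1 ± 2.68 (SD, n = 4 each). Pank1, Pank2 and Pank3, pantothenate kinases whose introns hold miR-107 and miR-103 with the same seed, went different ways, at 0.25, 0.01 and -0.24 log2, and none passed. Pank1 was at 0.14 without antagomiR-122 replicate 4, Pank3 at -0.10 without replicate 3, and Pank2 changed sign with 1 library left out. Lpp, host of miR-28a, was at -0.27 ± 0.11 (SE), or -0.13 with the length trend removed, and Smc4, host of miR-15b and miR-16, at -0.29 ± 0.13 (SE), both with overlapping groups. A host mRNA does not measure its microRNA, and 0 of these microRNAs had a value above 0 in the table.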

How the data were processed

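Liver RNA of 8 mice, 1 library each, was compared between antagomiR-control and antagomiR-122, grouped by sample title. Per the submitters' processing notes, the build was GRCm38 and the tools included TopHat2 2.0.13, cutadapt 1.7.1, Cufflinks 2.2.1 and Cuffdiff. Annotation, strand and scaling are not stated in the labels. Each mouse and each group has an FPKM value, deposited by the authors. Their deposited log2 fold change and test statistic were treated as a score, and the deposited p-value and q-value are quoted as the authors' own. A count test was not used, since FPKM are not counts.

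From these values, genes averaging 1 FPKM or more were tested with limma 3.58.1 under R 4.3.3 (two-sided, robust, with a mean-variance trend) after taking log2(FPKM + 1), a scale that understates changes of low genes, with Benjamini-Hochberg adjustment over 11131 genes. Single values were compared by exact permutation over 70 arrangements. Relative depth, and the worth of 1 fragment, were estimated from values under 0.3 FPKM in genes with 1 annotated transcript of over 1500 bases. The peak of FPKM times length there was assumed to be 1 fragment. Lengths, overlaps and 3′ untranslated regions came from GENCODE M21 (GRCm38), and the longest transcript was used. Dgcr8 has a second entry on a patch sequence, at 0 in all libraries, which was not counted. Scripts were tested on simulated data. Members and lists were chosen with earlier results of these data known. From each list of partners the 3 genes with the smallest p were named, and the 5 with symbols most like the locus among those above 0 in every library with a mean of at least 0.5 FPKM. Others were named after their values were seen. Alternatives covered pseudocount, filter, scaling, replicate block, each library left out and, added later, a lowess trend (span 0.3) of log2 values on log length. Deviations of same-numbered mice correlated at -0.238 to 0.128, which cannot settle whether the numbers pair mice.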

Additional observations from a re-analysis of the deposited data

Results flagged for a closer look

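Among 100 groups of 4 values examined, 7 had 1 library whose gap to the nearest other, as a part of the group's range, was past Dixon's 95% critical value for 4 samples. Chance flags about 1 in 20 groups. In controls, Ago2 in replicate 3 was 4.12 FPKM against 3.64 to 3.66 in the others. With antagomiR-122, the miR-122 locus in replicate 2 was 1.17 FPKM, and Usp35 at 0.815 and Abi3 at 9.89 FPKM stood out in the same library, both having been picked for their likeness to the locus. Zcchc11 at 10.8 and Egfl7 at 33.1 FPKM stood out in antagomiR-122 replicate 3, and Pank1 at 228 FPKM in replicate 4.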

How the results depend on the processing

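Of 62 results under the alternatives, 0 genes passed the limma threshold under any of them. The sign turned for Dicer1 without antagomiR-122 replicate 3 (0.0093) and with the length trend removed (0.041), for Ago1 under the same settings (0.10 and 0.016), for Tnrc6c without control 2 (0.0059), without antagomiR-122 replicate 2 (0.018) and with the length trend removed (0.10), and for Ago4 without control 2 (0.0023), control 4 (0.020), antagomiR-122 replicate 1 (0.038) or 3 (0.047) and with the length trend removed (0.043). With 1 library left out, Dicer1 ranged from -0.12 to 0.0093, Ago1 from -0.15 to 0.10, Tnrc6c from -0.040 to 0.018 and Ago4 from -0.072 to 0.047. Hnf4a lay between -0.069 and 0.056 and Pank2 between -0.093 and 0.10 with 1 library left out. So left out, Dgcr8, Xpo5, Ago2, Ago3, Tnrc6a, Rangap1, Rcc1, Ran, Gemin4, Pank1 and Pank3 moved by over 1.5 times without turning, as given above. The same held for Smad3 (-0.38 to -0.14), Tardbp (-0.19 to -0.03), Hsp90ab1 (-0.18 to -0.06), Fkbp4 (-0.16 to -0.06) and Cnot6l (-0.37 to -0.13). It also held for Qk (-0.18 to -0.06), Zcchc11 (0.05 to 0.31), Zcchc6 (-0.22 to -0.07), Rora (-0.41 to -0.17) and Egfl7 (0.11 to 0.20). The Ago2 share difference ranged from -1.93 to 0.437 points and turned positive without control 3 (0.333) or antagomiR-122 replicates 2 (0.437) or 4 (0.254); the Drosha to Dgcr8 log2 ratio difference ranged from -0.28 to 0.030, positive without control 3 (0.013) or antagomiR-122 replicate 2 (0.030); the Tnrc6a share difference ranged from 1.34 to 2.68 points. Leaving out 1 library, medians ranged from -0.036 to 0.040 for tailing and turnover genes, 0.14 to 0.54 for regulators of the locus and -0.018 to 0.073 for hosts; the Ago4 and Tnrc6c median was 0.071 with the length trend removed. Genes with separate groups numbered 503 in the full set and 702 to 1033 with 1 library left out, where fewer values must be apart. The locus difference ranged from -0.396 to -0.0930 FPKM (exact permutation p from 0.0571 to 0.686).

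Deviations from the group means of same-numbered mice had correlations of 0.128, -0.238, -0.0611 and -0.184. The highest correlations with any other number were 0.0671, 0.151, 0.158 and 0.335, so the same number stood higher in replicate 1 only. So few values cannot settle whether the numbers pair mice. With the replicate number as a block, 0 genes passed limma's threshold, 660 had an unadjusted p under 0.05 in place of 828, and Tnrc6b had an adjusted p of 0.832. The cause of these changes was not tested. The locus and Onecut1 were under the minimum level for limma, and 4 mice a group leave 95% intervals that include 0 for every tested member but Tnrc6b.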
